A study of Mus musculus with 18 samples.

Results

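The genes described here are the 7 that encode the protamines, the transition proteins and the spermatid linker histones of the mouse: Prm1, Prm2, Prm3, Tnp1, Tnp2, Hils1 and H1fnt. They were taken by symbol from a table of 20979 genes measured by RNA sequencing of whole testis, and all 7 were present and passed the filter on low values. The study asked how a high-fat diet and treatments given with it changed the testis of ICR mice, an outbred laboratory stock, at 10 weeks of age. Its 18 libraries formed 6 groups of 3. The control group carried only that label. The AOS group received AOS at 10 mg/kg. The HFD group received a high-fat diet, and the HFD-AOS group received the diet together with AOS at 10 mg/kg. The HFD-AOSFMT group received the diet with an FMT labelled for AOS at 10 mg/kg, and the HFD-conFMT group received the diet with an FMT labelled as control. The labels spell out neither AOS nor FMT and do not describe the FMT donors. They also do not say that each library came from a separate animal, so the spread that the p-values measure may in part be technical.

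Spermatids, the cells that follow meiosis, replace nearly all of their histones in order to pack the sperm head. Transition proteins take the place of histones first and protamines, small arginine-rich proteins, then take the place of the transition proteins. HILS1 and H1FNT (also called H1T2, and listed by RefSeq as H1f7) are linker histones made in spermatids, and H1FNT sits at the apical pole of the nucleus. The messages of Prm1, Prm2, Tnp1 and Tnp2 are transcribed in round spermatids and stored before they are translated in elongating spermatids. Prm1, Prm2, Prm3 and Tnp2 are neighbours, whereas Tnp1, Hils1 and H1fnt lie elsewhere. PRM3 keeps the protamine name from its place in the cluster, but it is an acidic protein that is found in the cytoplasm.

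On the GRCm38.p6 assembly, RefSeq places the cluster at chr16:10787935-10796823, a stretch of 8889 bases with all 4 genes on the minus strand in the order Tnp2, Prm3, Prm2, Prm1. The gaps between neighbours are 1852 bases from Tnp2 to Prm3, 462 bases from Prm3 to Prm2 and 4226 bases from Prm2 to Prm1. Tnp1 is at chr1:73015074-73015899 on the minus strand, Hils1 at chr11:94967593-94968456 on the plus strand and H1fnt at chr15:98255982-98257307 on the minus strand. Their longest GENCODE transcripts are short, with 469 bases for Prm1, 674 for Prm2, 410 for Prm3, 437 for Tnp1, 554 for Tnp2, 864 for Hils1 and 1308 for H1fnt. Prm3, Hils1 and H1fnt have a single exon.

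The 110 bases before the RefSeq start of the protamine and transition protein genes are shown because these 5 are the 4 most abundant genes and the 1 with the widest range, and include both that rose. All 5 are read 5′ to 3′ on the minus strand of GRCm38.p6, from chr16:10796824-10796933 for Prm1, chr16:10792106-10792215 for Prm2, chr16:10790915-10791024 for Prm3, chr1:73015900-73016009 for Tnp1 and chr16:10788656-10788765 for Tnp2. The assembly is of another strain than the ICR mice measured. Capitals mark TGACNTCA on either strand, a form of the cAMP response element that the spermatid activator CREM binds, and TATAA on either strand.
Prm1: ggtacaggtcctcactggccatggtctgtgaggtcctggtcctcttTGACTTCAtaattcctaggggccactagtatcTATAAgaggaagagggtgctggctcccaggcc
Prm2: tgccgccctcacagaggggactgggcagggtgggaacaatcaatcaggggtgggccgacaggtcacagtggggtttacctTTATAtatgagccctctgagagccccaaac
Prm3: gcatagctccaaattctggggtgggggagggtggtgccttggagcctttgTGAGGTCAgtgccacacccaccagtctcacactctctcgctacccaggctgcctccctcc
Tnp1: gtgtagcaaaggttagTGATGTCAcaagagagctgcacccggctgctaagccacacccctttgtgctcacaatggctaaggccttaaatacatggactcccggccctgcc
Tnp2: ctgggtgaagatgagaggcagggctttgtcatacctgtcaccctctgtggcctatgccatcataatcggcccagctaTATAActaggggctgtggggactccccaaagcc
The first base of the TGACNTCA match, on the strand shown, lies 64 bases before the start of Prm1. Its matches before Prm3 and Tnp1 are on the other strand, so the letters printed are its reverse complement, and begin 60 and 94 bases before the start. TATAA begins 32 bases before the start of Prm1 and 33 before that of Tnp2 on the strand shown, and a match on the other strand begins 30 bases before that of Prm2. The windows of 250 bases before Hils1 and H1fnt held neither, although H1fnt had the shorter TGACG, which is part of some forms of the same element, 180 bases before its start. Among 32851 RefSeq promoters of the same length, 7.49% held TGACNTCA, 22.8% held TATAA and 17.8% held TGACG. The full element TGACGTCA, which 1.55% of promoters held, was in no window of the 7 genes. The letters searched were chosen after the sequences had been seen, and a match describes a sequence, not binding.

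Protamine and transition protein messages were the most abundant in these testes. By mean FPKM (a level corrected for library total and transcript length) over the 18 libraries, Prm1 had rank 1 of all genes at 14836 FPKM, Tnp2 rank 2 at 14237, Prm2 rank 3 at 13234 and Tnp1 rank 4 at 7461. Prm3 had rank 79 at 712 FPKM, Hils1 rank 115 at 571 and H1fnt rank 179 at 455. The 7 genes together held 7.51% ± 0.439 of summed FPKM in the control group, 7.90% ± 1.03 in HFD, 8.26% ± 0.163 in HFD-AOSFMT, 8.78% ± 0.319 in HFD-conFMT, 8.88% ± 0.139 in AOS and 8.92% ± 0.56 in HFD-AOS (SD, n = 3 each). Single libraries ran from 6.72% in HFD replicate 2 to 9.38% in HFD-AOS replicate 1. For each of the 7 genes, no group had a lower mean than control. Every such comparison shares the same 3 control libraries. In a single comparison with control, 40.2% to 46.7% of all genes tested had a positive log2 fold change. The share with one in every comparison was not counted. Summed FPKM of the other rows was also lowest in control, with a mean of 548972 against 557536 to 572103. So were the mean sums of the round and of the elongating spermatid markers given below. When the groups were ordered by mean, every neighbouring pair had overlapping values for every gene.

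**Figure D1:**
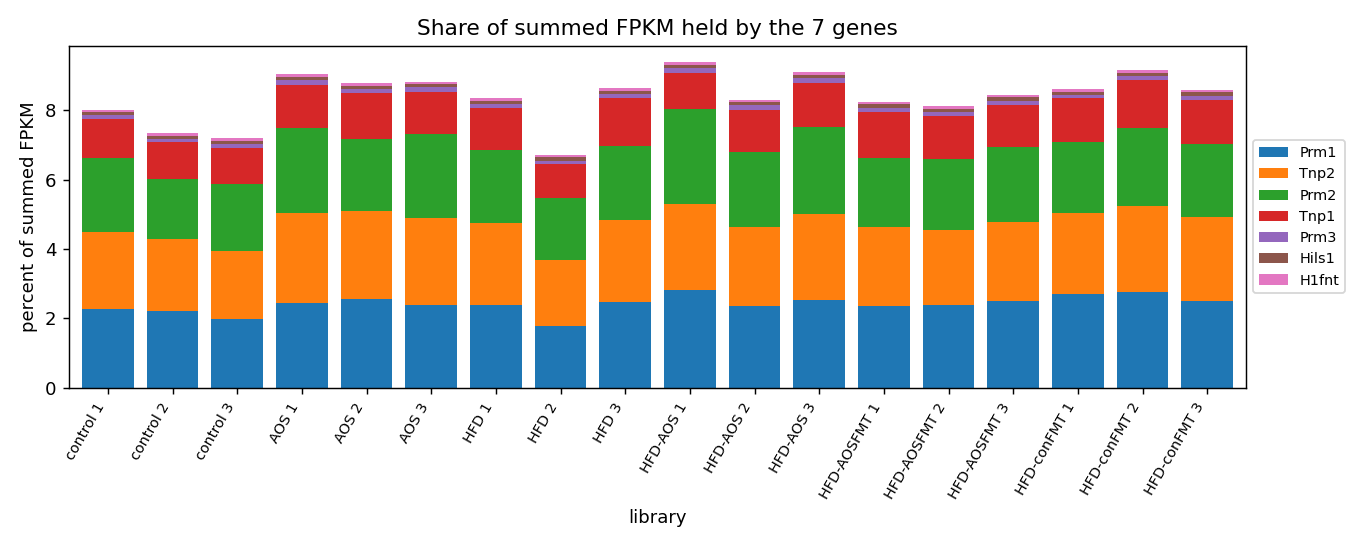
Stacked bars of the percent of summed FPKM held by each of the 7 genes in each of the 18 libraries, from 0. Prm1, Tnp2, Prm2 and Tnp1 make up nearly all of each bar, HFD replicate 2 is the lowest at 6.72% and HFD-AOS replicate 1 the highest at 9.38%.

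Read totals are unknown because the table holds no counts; summed FPKM ran from 588160 to 637077, which says nothing of depth. The median absolute log2 difference between 2 libraries was 0.0785 to 0.137 within groups and 0.077 to 0.152 between them. HFD replicate 2 had the lowest value of all 18 libraries for Prm1, Prm3, Tnp1 and Tnp2, and HFD-AOS replicate 1 had the highest for Prm1, Prm2, Prm3 and Tnp2. Array weights, which limma lowers for libraries that stray from their group over all genes, were lowest for HFD-AOS replicate 1 (0.329), with HFD replicate 2 at 0.594. Summed FPKM of 9 epididymis genes was 265 in control replicate 3 and 207 in HFD-conFMT replicate 2, against 39.7 to 73.0 in the other 16 libraries. Crisp1, an epididymal secretory protein, was at 159 FPKM in the first and 104 in the second. It was also at 8.6 in HFD-conFMT replicate 3 and 2.71 in control replicate 1, against 0 to 0.59 in the rest. Without control replicate 3 and HFD-conFMT replicate 2, calls over all genes in HFD-AOS against control were 23 in place of 325. They were 4 in place of 274 in HFD-conFMT against control and 1 in place of 50 in HFD-AOSFMT against control. In the test over all 6 groups they were 1 in place of 43. Those fits have fewer libraries and keep HFD-conFMT replicate 3 and control replicate 1. The part of the epididymis genes in the results was not tested.

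**Figure D2:**
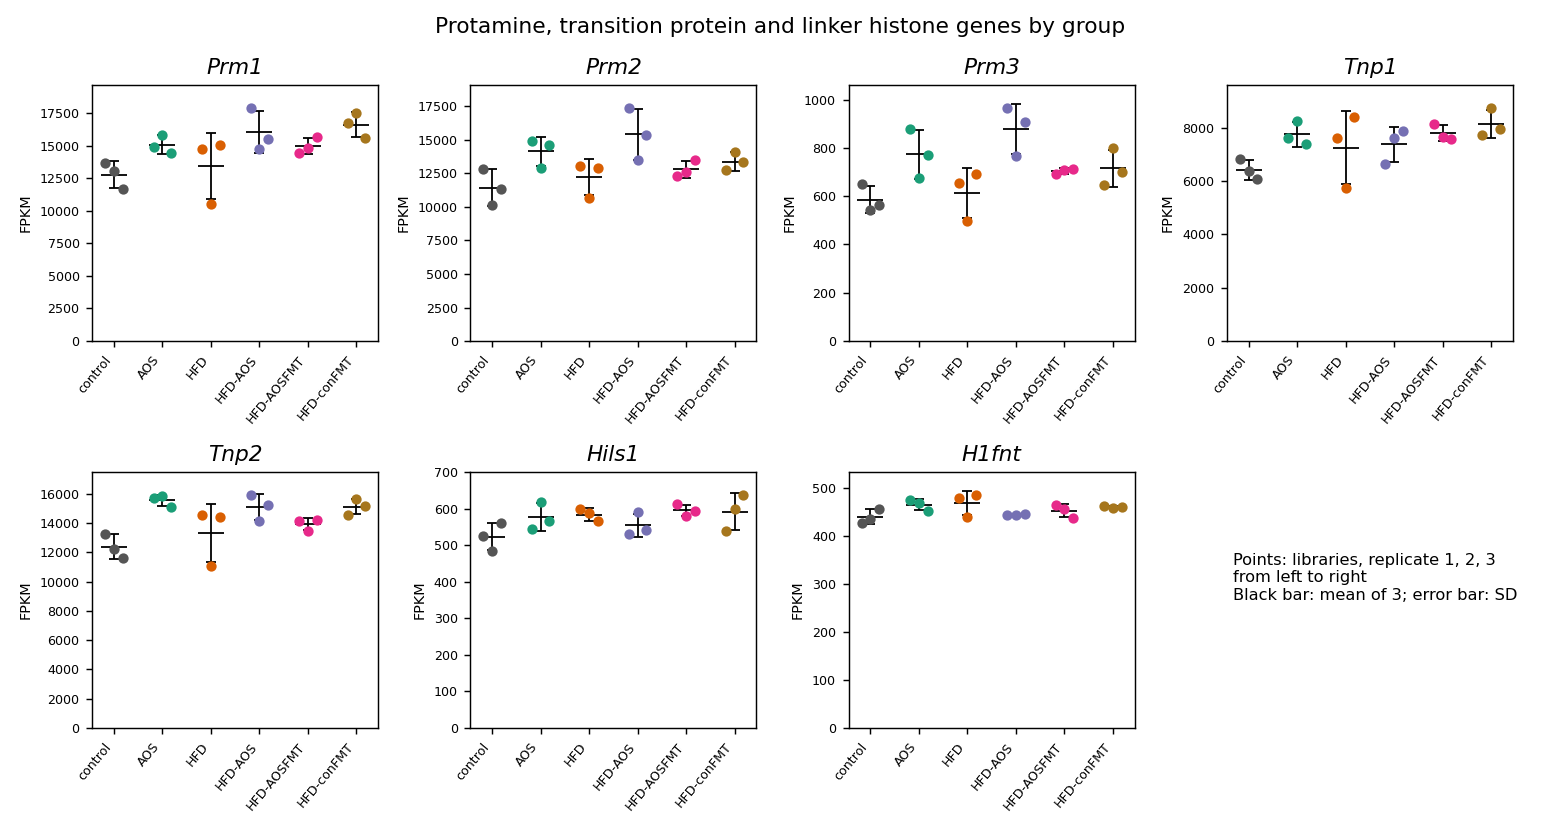
FPKM of each gene by group on linear axes from 0, with 1 point per library (replicates 1, 2 and 3 from left to right), a bar at the mean of 3 and an error bar of 1 SD. Control has the lowest mean for all 7 genes, HFD shows a wide spread for Prm1, Tnp1 and Tnp2, and H1fnt is nearly flat.

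Prm1 encodes the protamine that all mammals use. Its values were 13687, 13051 and 11649.9 FPKM in control replicates 1 to 3, 14946, 15864 and 14417 in AOS, and 14772, 10536 and 15091 in HFD. In HFD-AOS they were 17895, 14753 and 15539.8, in HFD-AOSFMT 14478, 14808 and 15652, and in HFD-conFMT 16742, 17539 and 15633. The control libraries were all below every library of the other groups except HFD replicate 2, which was lowest of all. Against control, the log2 fold change of Prm1 was 0.38 in HFD-conFMT (SE 0.11, adjusted p = 0.0895), 0.33 in HFD-AOS (SE 0.11, adjusted p = 0.117) and 0.24 in AOS (SE 0.11, adjusted p = 0.318), and none passed 0.05.

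Prm2 encodes the second protamine, which is made as a precursor and processed in the spermatid nucleus. Control replicates 1 to 3 had 12848, 10130.3 and 11349 FPKM, AOS 14893, 12890.2 and 14633, HFD 13045, 10676 and 12920.1, and HFD-AOS 17364, 13523 and 15339.5. The HFD-AOSFMT libraries had 12297, 12643 and 13513, and the HFD-conFMT libraries 12724, 14093 and 13325. All 3 HFD-AOS libraries lay above all control and all HFD libraries, and the AOS libraries lay above all control libraries, whereas both FMT groups overlapped with control. Prm2 rose in HFD-AOS against control, from 11443 ± 1361 to 15409 ± 1921 FPKM (SD, n = 3), 1.35-fold, with a log2 fold change of 0.43 (SE 0.10, limma adjusted p = 0.0425).

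Prm3 showed the widest range of the 7 genes, 1.94 times from its lowest to its highest library. It stood at 652, 544 and 562 FPKM in control, 878, 674 and 770.01 in AOS, and 654, 497 and 694 in HFD. The HFD-AOS libraries had 965, 765 and 909, the HFD-AOSFMT libraries 691, 708 and 715, and the HFD-conFMT libraries 647, 799 and 701. HFD-AOS again lay wholly above control and above HFD, and AOS and HFD-AOSFMT lay above control, while HFD-conFMT replicate 1 fell below the highest control. Prm3 rose in HFD-AOS against control, with 879 ± 103 FPKM against 586 ± 57.6 (SD, n = 3). Its log2 fold change was 0.58 (SE 0.13, limma adjusted p = 0.0321).

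In HFD-AOS against control, then, 2 of the 7 genes passed the test, Prm2 and Prm3, where 2.48% of all 13105 genes tested did. The values of 4 genes, Prm1, Prm2, Prm3 and Tnp2, did not overlap and were higher in HFD-AOS, as was the case for 7.13% of all genes. The median log2 fold change of the 7 genes was 0.29, against -0.029 over all genes tested. The call did not hold in every setting. No gene of the 7 passed when control replicate 2, control replicate 3, HFD-AOS replicate 1 or HFD-AOS replicate 3 was left out. None passed without both control replicate 3 and HFD-conFMT replicate 2, the libraries with the highest sums of epididymis genes. There the adjusted p of Prm3 was 0.104 and that of Prm2 0.142. Without HFD replicate 2, 4 passed: Prm1, Prm2, Prm3 and Tnp2. When AOS replicate 1 or 3 or any library of either FMT group was left out, Prm3 passed but Prm2 did not. The limma adjusted p of Prm2 was then 0.0516 to 0.0593. Those libraries enter this comparison only through the shared estimate of the spread. Of 18 fits with 1 library left out, Prm2 lost its call in 12 and Prm3 in 4. Summed FPKM of 6 blood genes was 60.3 to 87.5 in HFD-AOS and 99.8 to 141 in control, and its part was not tested. The genes are short, with a median transcript of 554 bases against 2859.5 over 12870 tested genes that have a length, and with a trend on length and GC content removed from each library the log2 fold change of Prm3 was 0.40 (adjusted p = 0.117) and that of Prm2 0.31 (adjusted p = 0.14).

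Tnp1 encodes the shorter transition protein. Control replicates 1 to 3 had 6830.5, 6377 and 6085 FPKM, AOS 7599, 8268 and 7394, HFD 7611, 5747 and 8416, and HFD-AOS 6627, 7635 and 7867. In the FMT groups the values were 8156, 7658 and 7589.7 for HFD-AOSFMT and 7743, 8734 and 7959.7 for HFD-conFMT. AOS and both FMT groups lay wholly above control. HFD-AOS did not, because replicate 1, the highest library for both protamines, was below control replicate 1 for Tnp1. The log2 fold change of Tnp1 against control was 0.34 in HFD-conFMT (SE 0.11, adjusted p = 0.106), 0.28 in HFD-AOSFMT (SE 0.11, adjusted p = 0.195), 0.27 in AOS (SE 0.11, adjusted p = 0.248), 0.20 in HFD-AOS (SE 0.11, adjusted p = 0.318) and 0.16 in HFD (SE 0.11, adjusted p = 0.799).

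Tnp2 encodes the other transition protein, from the protamine cluster. Its values were 13289, 12218 and 11609.96 FPKM in control, 15709.9, 15850.2 and 15085 in AOS, and 14588, 11049.6 and 14391 in HFD. The HFD-AOS libraries had 15926, 14155 and 15231, the HFD-AOSFMT libraries 14150.02, 13437 and 14188, and the HFD-conFMT libraries 14569.8, 15642 and 15175. Control lay below every library of AOS, HFD-AOS, HFD-AOSFMT and HFD-conFMT, and HFD replicate 2 below all of them. For Tnp2 the log2 fold change against control was 0.33 in AOS (SE 0.087, adjusted p = 0.119), 0.29 in HFD-AOS (SE 0.087, adjusted p = 0.0811) and 0.29 in HFD-conFMT (SE 0.087, adjusted p = 0.0901).

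The linker histone messages varied less. Hils1 had 525, 485 and 559 FPKM in control, 544, 619 and 567 in AOS, 598, 589 and 565 in HFD, and 532, 590.2 and 541 in HFD-AOS. Its values were 612, 581 and 594 in HFD-AOSFMT and 538, 599 and 637 in HFD-conFMT. HFD and HFD-AOSFMT lay above all control libraries, and the other 3 groups overlapped with control. Against control, Hils1 had a log2 fold change of 0.19 in HFD-AOSFMT (SE 0.067, adjusted p = 0.163), 0.18 in HFD-conFMT (SE 0.067, adjusted p = 0.168), 0.16 in HFD (SE 0.067, adjusted p = 0.713) and 0.14 in AOS (SE 0.067, adjusted p = 0.318).

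H1fnt had the narrowest range of the 7, 1.14 times from its lowest to its highest library. Its values were 427, 436 and 457 FPKM in control, 474, 469.9 and 453 in AOS, and 479.9, 439.5 and 486 in HFD. The HFD-AOS libraries had 444.1, 443.9 and 445.9, the HFD-AOSFMT libraries 465, 458 and 438, and the HFD-conFMT libraries 462, 458 and 459.98. HFD-conFMT lay just above all control libraries and every other group overlapped with control. The log2 fold change in AOS against control was 0.080 (SE 0.041, adjusted p = 0.353).

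**Figure D3:**
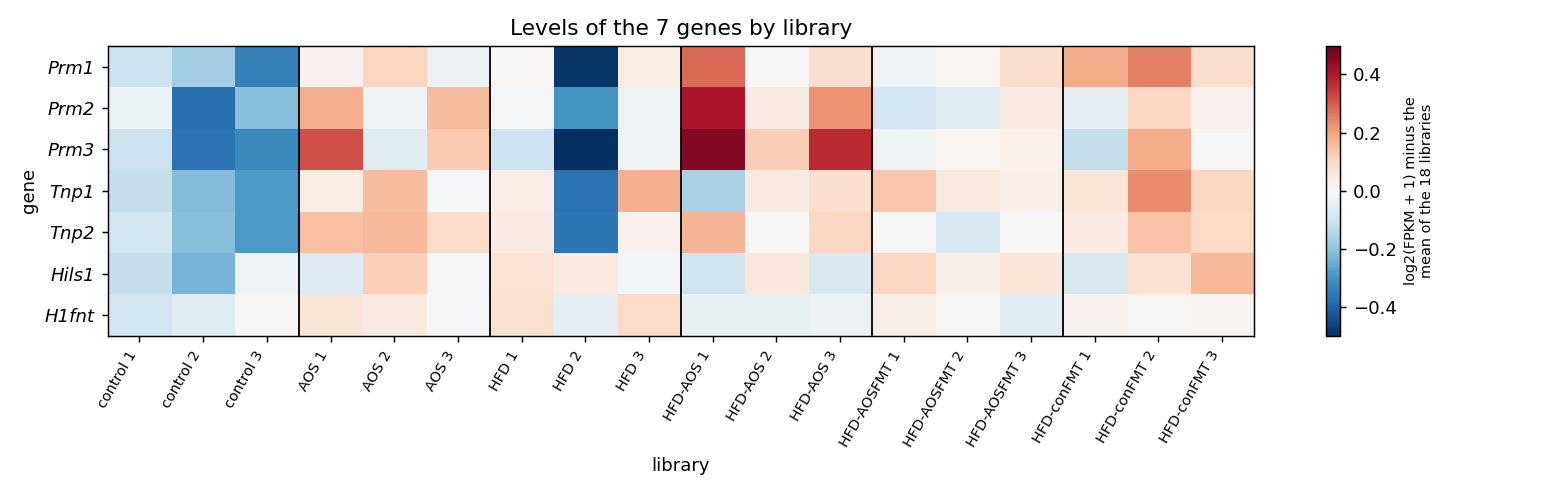
Heat map of log2(FPKM + 1) minus the mean of the 18 libraries, with a row for each gene and a column for each library grouped by treatment. Prm1, Prm2, Prm3, Tnp1 and Tnp2 are all low in HFD replicate 2, where Hils1 is slightly above 0. In control replicate 2 Hils1 is low as well, and H1fnt has the palest row.

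Within groups, the SD of log2 values was 0.15 for Prm1, 0.14 for Prm2, 0.17 for Prm3, 0.14 for Tnp1 and 0.11 for Tnp2. For Hils1 it was 0.086 and for H1fnt 0.045. The median over all genes tested was 0.097, and over the 220 genes that averaged 400 FPKM or more it was 0.073. Over all 18 libraries, protamine and transition protein messages varied more within groups than the typical gene of high level, and H1fnt less. Part of that spread came from HFD replicate 2 and HFD-AOS replicate 1. They were chosen after the values of these genes had been seen, so a smaller SE without them is built into the choice. Without both, the SE of the change in HFD-conFMT against control fell from 0.113 to 0.060 for Prm1. It fell from 0.108 to 0.060 for Tnp1 and from 0.087 to 0.049 for Tnp2. The SD of the genes of high level was not computed without these libraries.

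AOS alone gave no call among the 7 genes against control. The background was low as well: 0.0229% of all genes, or 3 of 13105, passed. Unadjusted p was under 0.05 for 4 of the 7 genes and for 15.8% of all genes. The values of Prm1, Prm2, Prm3, Tnp1 and Tnp2 were all higher in AOS than in control with no overlap, 5 of 7 genes, against 7.96% of all genes. Prm3 had the highest log2 fold change of the 7 at 0.40 (SE 0.13, adjusted p = 0.167), and that of Prm2 was 0.31 (SE 0.10, adjusted p = 0.178). The 10 Leydig cell genes summed to 2607 to 3551 FPKM in AOS and 3559.9 to 4075 in control, and the 6 blood genes to 66.5 to 98.8 and 99.8 to 141, so both were lower without overlap, and their part was not tested. The 20 round spermatid markers were higher without overlap, at 6668.5 to 6875 FPKM against 6481.5 to 6526. So were the 20 elongating spermatid markers, at 22418 to 23147 against 21531 to 22387. In each list 13 of the 20 genes had a positive log2 fold change, and the part of these markers was not tested. Without HFD replicate 2, which enters this comparison only through the shared estimate of the spread, Tnp2 passed (adjusted p = 0.0466).

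The diet alone gave no call either, and 0% of all genes passed. Adjusted p of the 7 genes ran from 0.713 to 0.946, and unadjusted p was under 0.05 for 2 of them and for 6.75% of all genes. Only Hils1 had HFD values that did not overlap with control, as 5.17% of all genes did in that direction. The median log2 fold change of the 7 was 0.095, against -0.011 over all genes. HFD replicates 1 and 3 lay above all control libraries for Prm1, Prm2, Prm3, Tnp1 and Tnp2 and replicate 2 lay below at least 2 of the 3 for each, so the HFD mean rests on libraries that went opposite ways. The 10 macrophage and leukocyte genes summed to 48.3 to 52.6 FPKM in HFD and 55.4 to 58.4 in control, and their part was not tested. The 20 round spermatid markers summed to 6589 to 6902 FPKM in HFD, above 6481.5 to 6526 in control. Of them 17 had a positive log2 fold change, and their part was not tested either.

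Both FMT groups are compared with the same control libraries as the groups above. In HFD-conFMT against control, none of the 7 genes passed, where 2.09% of all genes did; unadjusted p was under 0.05 for 6 of the 7 and for 18.9% of all genes. Prm1, Tnp1, Tnp2 and H1fnt did not overlap and were higher, against 12.7% of all genes. Markers of other cells were higher in HFD-conFMT too: 7 adipocyte genes summed to 41.8 to 47.9 FPKM against 17.1 to 34.7 in control, and 10 macrophage and leukocyte genes to 61.7 to 71.5 against 55.4 to 58.4. None of these markers passed on its own, and their part was not tested. The 20 round spermatid markers summed to 6868 to 7019 FPKM, above 6481.5 to 6526 in control. Of them 16 had a positive log2 fold change and 1 passed, Tssk2, and their part was not tested either. Log2 fold changes were 0.29 for Prm3 (SE 0.13, adjusted p = 0.231) and 0.23 for Prm2 (SE 0.10, adjusted p = 0.242). Without HFD replicate 2, or when only the libraries of the 2 groups were fitted, Prm1, Tnp1 and Tnp2 passed; with these 2 groups alone their adjusted p was 0.0465, 0.0439 and 0.0497.

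In HFD-AOSFMT against control, 0 of the 7 passed and 0.382% of all genes did. Unadjusted p was under 0.05 for 3 of the 7 and for 17.5% of all genes. Prm1, Prm3, Tnp1, Tnp2 and Hils1 did not overlap and were higher, as 11.0% of all genes were. The log2 fold change of Prm3 was 0.27 (SE 0.13, adjusted p = 0.28). Here too, 20 round spermatid markers summed to more than in control, 6858 to 6923 FPKM against 6481.5 to 6526. The 20 elongating spermatid markers summed to 22648 to 22894 against 21531 to 22387. Positive log2 fold changes were found for 14 of the former and 15 of the latter, and their part was not tested.

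**Figure D4:**
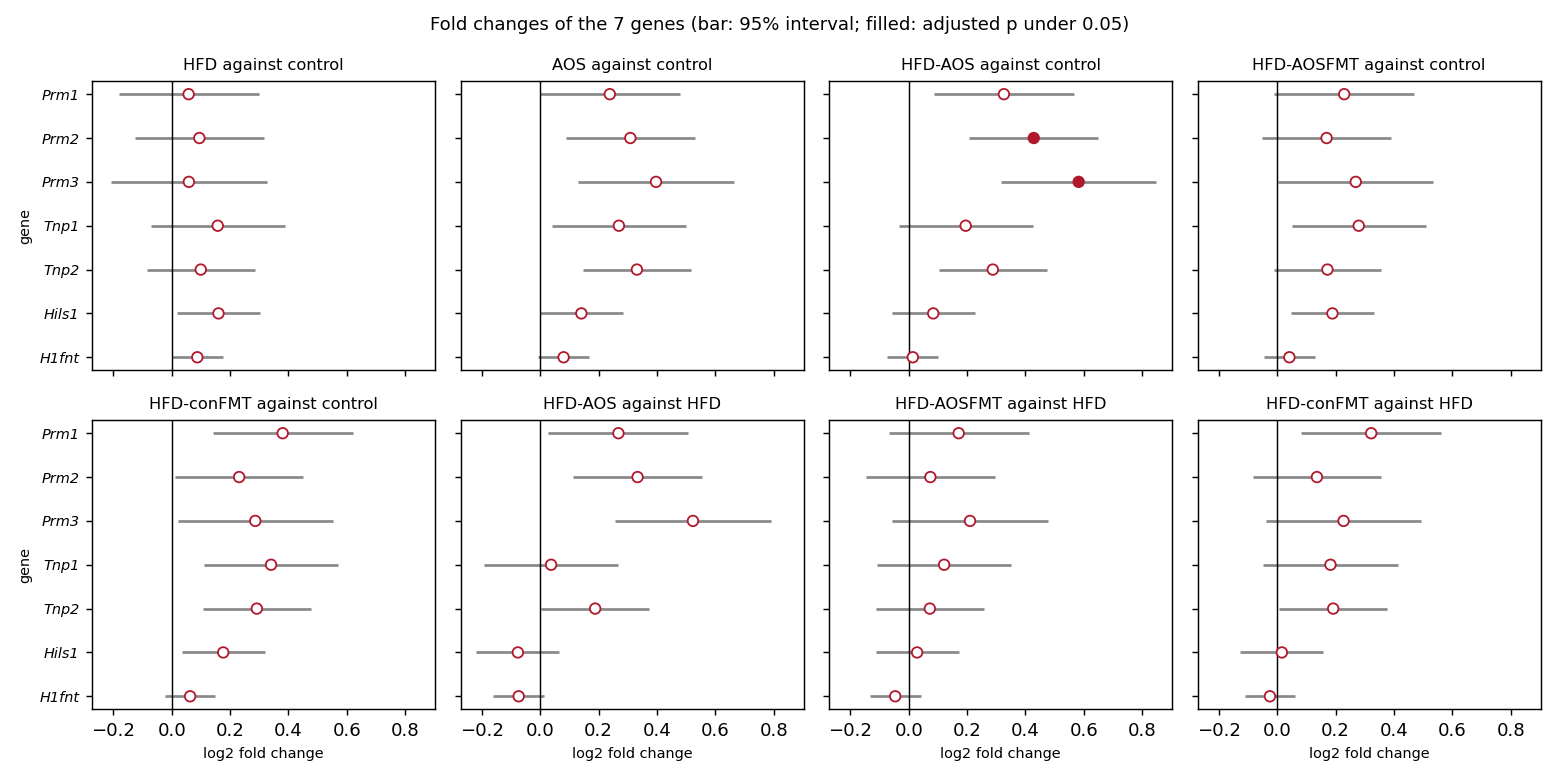
Log2 fold change on the log2(FPKM + 1) scale of each gene in 8 comparisons, with bars for the 95% interval and filled points for adjusted p under 0.05. The filled points are Prm2 (0.43) and Prm3 (0.58) in HFD-AOS against control.

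Against the diet alone, no treatment gave a call among the 7 genes. In HFD-AOS against HFD 0% of all genes passed; Prm2 and Prm3 did not overlap and were higher, against 4.90% of all genes. The log2 fold change was 0.52 for Prm3 (95% interval 0.26 to 0.79, adjusted p = 0.215) and 0.33 for Prm2 (0.11 to 0.55, adjusted p = 0.245), and unadjusted p was under 0.05 for 4 of the 7 and for 12.7% of all genes. In HFD-AOSFMT against HFD 0.0229% of all genes passed. There the log2 fold change of Prm3 was 0.21 (-0.056 to 0.48, adjusted p = 0.603) and that of Prm1 0.17 (-0.068 to 0.41, adjusted p = 0.646), and no gene of the 7 reached an unadjusted p of 0.05. In HFD-conFMT against HFD, where 0% of all genes passed, the change of Prm1 was 0.32 (0.082 to 0.56, adjusted p = 0.293), and Prm1 did not overlap, as 10.3% of all genes did in that direction. Unadjusted p was under 0.05 there for 2 of the 7 genes and for 12.3% of all genes. These changes depend on HFD replicate 2. Without that library the log2 fold change in HFD-AOSFMT against HFD was 0.0039 for Prm1 and 0.065 for Prm3. In HFD-conFMT against HFD that of Prm1 was 0.155, and in HFD-AOS against HFD it was 0.38 for Prm3 and 0.24 for Prm2.

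The FMT groups, compared with each other, gave no difference among the 7 genes that passed the test: all had an adjusted p of 0.9996, and 0.00763% of all genes passed. Tnp2 was lower in HFD-AOSFMT than in HFD-conFMT without overlap, as 5.39% of all genes were, with a log2 fold change of -0.12 and a 95% interval from -0.30 to 0.065. None of the 7 had an unadjusted p under 0.05, nor did any between HFD-AOS and AOS, where 0% of all genes passed and H1fnt alone did not overlap, being lower in HFD-AOS (log2 fold change -0.066, adjusted p = 0.632; 5.85% of all genes were lower without overlap).

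Whether AOS acted differently with the diet than without it was tested as an interaction, the change from HFD to HFD-AOS minus the change from control to AOS. It gave 0 calls among the 7 genes and 0% over all genes. The lowest unadjusted p belonged to the linker histones, with -0.15 on the log2 scale for H1fnt (SE 0.058, adjusted p = 0.703) and -0.22 for Hils1 (SE 0.095, adjusted p = 0.714). A test for any difference among the 6 groups called none of the 7 and 0.328% of all genes. Its adjusted p was 0.127 for Prm3, 0.169 for Tnp2, 0.175 for Prm2, 0.225 for Prm1, 0.325 for Tnp1, 0.35 for Hils1 and 0.5 for H1fnt, and the unadjusted p was under 0.05 for 4 of the 7 and for 18% of all genes.

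Ratios between the genes within a library are free of any scaling of that library. The ratio of Prm2 to Prm1, FPKM over FPKM, ran from 0.760 in HFD-conFMT replicate 1 to 1.02 in AOS replicate 3, with a mean of 0.896 ± 0.106 in control, 0.941 ± 0.112 in AOS, 0.917 ± 0.084 in HFD and 0.958 ± 0.0368 in HFD-AOS. It was 0.855 ± 0.00713 in HFD-AOSFMT and 0.805 ± 0.0462 in HFD-conFMT (SD, n = 3 each). HFD-AOS lay above both FMT groups without overlap but overlapped with control, AOS and HFD. How often other ratios separate in this way was not counted. The ratio of Prm1 to Tnp1 was 2.70 in HFD-AOS replicate 1 and 1.78 to 2.16 in the other 17 libraries, and that of Tnp2 to Tnp1 was 2.40 in the same library against 1.71 to 2.07. That library thus held much Prm1, Prm2, Prm3 and Tnp2 message for its amount of Tnp1. Prm3 to Prm2 kept between 0.0466, in HFD replicate 2, and 0.0592, in HFD-AOS replicate 3.

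Across the 18 libraries, Prm2 and Prm3, whose genes are 462 bases apart, had the highest correlation of the 21 pairs on the log2 scale (Pearson's r 0.954, Spearman's rho 0.915). Without the 2 libraries farthest from the median of Prm2, control replicate 2 and HFD-AOS replicate 1, r was 0.956. HFD replicate 2, the lowest library for Prm3, was kept there. After group means had been removed, r was 0.902. Prm1 and Tnp2 came to r 0.902 and rho 0.796, with r 0.750 without control replicate 3 and HFD replicate 2, and 0.922 within groups. For Prm1 and Prm2 r was 0.739, and for Prm1 and Tnp1 0.736, which fell to 0.378 without control replicate 3 and HFD replicate 2 and so rested in part on those libraries. Tnp1 had r 0.419 and rho 0.228 with Prm2 and r 0.514 and rho 0.311 with Prm3, below its values with H1fnt (r 0.557, rho 0.643). After group means had been removed, r of Tnp1 was 0.248 with Prm2, 0.474 with Prm3 and 0.555 with H1fnt. Leaving out the 2 farthest libraries brought the values of r closer together. The libraries left out differ between pairs, so these values cannot be set against each other. Without control replicate 2 and HFD-AOS replicate 1, r with Prm2 was 0.623. Without HFD-AOS replicate 1 and HFD replicate 2, r with Prm3 was 0.604. Without control replicate 3 and HFD replicate 2, r with H1fnt was 0.638. With Hils1, Tnp1 had r 0.466 and rho 0.532. Hils1 moved little with the protamines, with r 0.118 to Prm1, 0.053 to Prm2 and 0.0046 to Prm3. These correlations describe values that share libraries and the scaling of each library.

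**Figure D5:**
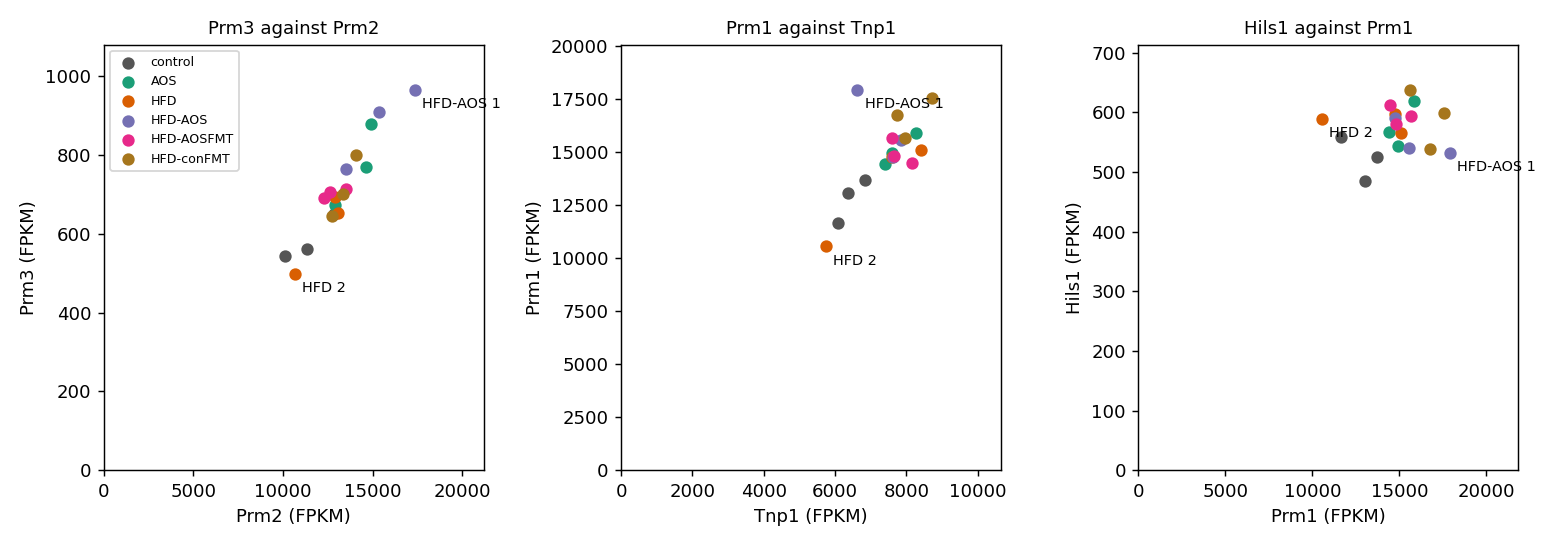
FPKM of 3 pairs of genes on linear axes from 0, with 1 point per library coloured by group and HFD replicate 2 and HFD-AOS replicate 1 labelled. Prm3 follows Prm2 closely (r 0.954), HFD-AOS replicate 1 stands off the line of Prm1 against Tnp1, and Hils1 does not follow Prm1 (r 0.118).

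In whole testis, fewer cells of a type and less RNA per cell cannot be told apart, so the markers of spermatogenic stages are given beside these results. Summed FPKM of 20 markers of elongating spermatids, none of them among the 7 genes, was 21848 ± 469 in control, 22694 ± 395 in AOS, 22467 ± 1201 in HFD, 24296 ± 1696 in HFD-AOS, 22803 ± 135 in HFD-AOSFMT and 22333 ± 230 in HFD-conFMT (SD, n = 3 each). All control libraries, at 21531 to 22387, lay below every AOS, HFD-AOS and HFD-AOSFMT library. Control was the lowest group and HFD-AOS the highest, as for the share of summed FPKM held by the 7 genes. Gene by gene, HFD-AOS had the highest mean only for Prm2 and Prm3. In the marker sum, HFD-AOS replicate 1 was the highest library at 26227. HFD replicate 2, at 21082, was the lowest. In HFD-AOS against control, 14 of these 20 markers had a positive log2 fold change, with a median of 0.091, and 0 passed. Of 20 round spermatid markers 16 were positive, with a median of 0.10, and 2 rose: Sun5, of the head to tail coupling, by 0.33 (SE 0.067, adjusted p = 0.0279), and Spaca7, of the acrosome, by 0.32 (SE 0.071, adjusted p = 0.0333). The median of 15 spermatocyte markers was -0.073, and none passed. Summed FPKM of the 20 round spermatid markers was 6507 ± 23.0 in control, 6775 ± 103 in AOS and 6764 ± 160 in HFD. It was 6847 ± 207 in HFD-AOS, 6895 ± 33.5 in HFD-AOSFMT and 6920 ± 85.2 in HFD-conFMT (SD, n = 3 each). All control libraries, at 6481.5 to 6526, lay below every other library, the lowest of which had 6589 (HFD replicate 3). A lowest level in control was thus not particular to the 7 genes. The part of these shifts in the changes of Prm2 and Prm3 was not tested.

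Other genes of the pathway were read from 5 lists. Of 12 genes for transcription in spermatids, such as the TATA-binding protein relative Tbpl1, the activator partner Fhl5 and Taf7l, none passed in any comparison. Tbpl1 stood at 116 ± 4.06 FPKM in control and 109 ± 7.92 in HFD-AOS, Fhl5 at 258 ± 4.41 and 254 ± 21.5, and Taf7l at 23.6 ± 0.486 and 23.5 ± 2.45 (SD, n = 3). These factors thus showed no change that passed the test in the comparison in which Prm2 and Prm3 rose.

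Of 20 genes for histone removal and chromatin remodelling, 0 rose and 1 fell in HFD-AOS against control. It was Psme4, the proteasome activator PA200, which takes part in the degradation of acetylated core histones, at 98.9 ± 3.6 against 115 ± 4.23 FPKM (log2 fold change -0.21, SE 0.042, adjusted p = 0.0245). In the same list Parp1 stood at 20.3 ± 1.58 in HFD-AOS and 24.1 ± 1.58 in control, and the kinase gene Tssk6 at 245 ± 20.9 and 248 ± 7.06. Of 15 genes for the storage of spermatid messages 0 rose and 1 fell, Tdrd7, a Tudor protein of the chromatoid body, at 77 ± 3.09 FPKM in HFD-AOS and 88.1 ± 4.4 in control (log2 fold change -0.19, SE 0.045, adjusted p = 0.0398). Tarbp2, which binds Prm message, was at 71.7 ± 5.22 in HFD-AOS and 71.8 ± 2.68 in control, and Prkra at 11.2 ± 1.08 and 12.7 ± 0.229.

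Of 9 core histone variants, not all of them specific to the testis, 8 were tested and 0 passed in any comparison. H2afz stood at 207 ± 3.97 in HFD-conFMT and 182 ± 5.44 in control, H2al2a at 496 ± 26.8 and 434 ± 42.1, and Hist1h2aa at 2.50 ± 0.0153 and 3.20 ± 0.726 FPKM. Of 14 genes for nuclear shaping and the head to tail junction, 1 rose: Meig1, which works at the manchette, the microtubule sleeve around the elongating nucleus. It stood at 2167 ± 106 FPKM in control, 2707 ± 133 in HFD-AOS and 2654 ± 103 in HFD-conFMT, with log2 fold changes of 0.32 (SE 0.052, adjusted p = 0.0115) and 0.29 (SE 0.052, adjusted p = 0.0181). It was also called in the test over all 6 groups (adjusted p = 0.04). No other gene of the 5 lists passed in any comparison. Without control replicate 3 and HFD-conFMT replicate 2, none of the list genes called above passed: adjusted p in HFD-AOS against control was 0.0937 for Psme4, 0.0965 for Tdrd7, 0.104 for Sun5, 0.132 for Spaca7 and 0.0796 for Meig1, and Meig1 had 0.206 in HFD-conFMT and 0.240 in the test over all groups. In the same list Lmna was at 7.35 ± 0.553 in HFD-AOS and 7.24 ± 0.231 in control, and Ift88 at 32.6 ± 2.67 and 35.7 ± 1.24.

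The genes most like the mean pattern of the 7 were sought among 6344 other genes that averaged 10 FPKM or more. Taken were the 8 with the highest Pearson correlation, over the 18 libraries, with the mean of the 7 centred log2 values. That mean mostly follows the protamine and transition protein genes, whose SD over the libraries was 0.15 to 0.25. The SD was 0.099 for Hils1 and 0.050 for H1fnt. The 8 were Serf1 (r 0.939), 4933411K16Rik (0.928), Ghrl (0.913), Gapdhs (0.912), Hsbp1 (0.909), Zfand3 (0.902), Tsacc (0.899) and Spata33 (0.892). Without control replicate 2 and HFD replicate 2, the libraries farthest from the median, r ran from 0.807 to 0.878. Gapdhs, the glycolytic enzyme of the sperm tail, is also 1 of the 20 elongating spermatid markers above. Serf1 had its lowest value in HFD replicate 2, at 898 FPKM, and its highest in HFD-AOS replicate 3, at 1236. Of the 8, 6 were lowest in HFD replicate 2 and 6 were highest in HFD-AOS replicate 1. Because the 8 were chosen for their likeness over these same libraries, shared extremes are built into the choice and are no separate result.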

How the data were processed

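RNA was extracted from frozen testis with Trizol and a column kit, per the labels' protocols. The submitters' processing notes name Bowtie 0.12.2 and the mm10 build. How reads were counted, with which annotation and strand setting, is not given in the sources used here. Before they deposited them, the authors scaled the values by library total and gene length, as FPKM or RPKM, as far as the values show: the table of 20985 rows and 18 libraries names no unit, and read depth is unknown. Library columns were matched to samples by title. Left out were 6 rows with repeated symbols.

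The test was limma 3.58.1 in R 4.3.3 on log2(FPKM + 1), with genes of a mean of at least 1 FPKM (13105), the 6 group means (12 residual degrees of freedom), a mean-variance trend and Benjamini-Hochberg adjustment over all genes tested, threshold 0.05. Fold changes are on that scale. Alternatives changed the pseudocount, the filter, the scaling, the libraries fitted, the library weights, the replicate block, a length and GC trend, and each library in turn. Transcript lengths are from GENCODE; promoters, positions and RefSeq names are from RefSeq GRCm38.p6.

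The genes and lists were chosen with earlier results of these data known. Named beside the 7 were the 3 genes of each pathway list with the smallest F test p, any list gene past the threshold, and the 8 genes of most similar pattern. Of the marker lists, those of spermatogonia, Sertoli, Leydig and peritubular cells, macrophages, blood and adipocytes are described in the closing section.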

Additional observations from a re-analysis of the deposited data

How the results depend on the processing

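The number of the 7 genes that passed in HFD-AOS against control, 2, fell to 0 with no filter on low values, with only the groups compared, with array weights, without both control replicate 3 and HFD-conFMT replicate 2, and with the length and GC trend removed, and to 1 under quantile normalization; leaving out 1 library gave 0 to 4. It was 0 without control replicate 2 or 3 or HFD-AOS replicate 1 or 3, and 4 without HFD replicate 2. The number was 1, Prm3 without Prm2, when AOS replicate 1 or 3 or any library of either FMT group was left out. It stayed at 2 with a pseudocount of 0.1 or 10, a mean of at least 5 FPKM, median-ratio scaling, totals without the 7 genes, and with the replicate number as a block (adjusted p = 0.0278 for Prm3 and 0.0285 for Prm2). In AOS against control the number went from 0 to 1 with array weights and ran from 0 to 1 with 1 library left out; in HFD-conFMT against control it went from 0 to 3 with array weights or only the groups compared, and from 0 to 3 with 1 library left out. Leaving out both HFD replicate 2 and HFD-AOS replicate 1, chosen after seeing the data, gave 2 in AOS (Tnp1 and Tnp2), 2 in HFD-AOS (Prm3 and Tnp2), 1 in HFD-AOSFMT (Tnp1) and 3 in HFD-conFMT (Prm1, Tnp1 and Tnp2) against control, and 1 in the test over all groups (Tnp2). The cause of these shifts was not tested. Over all genes tested, calls against control ran over the alternatives from 0 to 240 in AOS (3 as reported), 0 to 1068 in HFD-AOS (325), 1 to 576 in HFD-AOSFMT (50) and 4 to 925 in HFD-conFMT (274).

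Quantile normalization ties the most abundant genes to rank means by construction. The log2 fold change became -0.085 for Prm1 in AOS, -0.19 for Tnp1 and -0.078 for Tnp2 in HFD-AOS against control. It became 0 for Tnp1 in HFD, AOS and HFD-AOSFMT, for Prm1 in HFD-AOS, for Prm1, Prm2, Tnp1 and Tnp2 in HFD-conFMT against control, and for Tnp2 in HFD-AOSFMT against HFD-conFMT. Replicate numbers did not pair the libraries: over 45 pairs with the same number the correlation of deviations from the group means ran from -0.243 to 0.167 with a median of -0.00911, against -0.00306 for other pairs, and 6 of 18 libraries correlated best with their own number. The replicate block changed no count of the 7 genes.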

Other observations

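Summed FPKM of the other marker lists is given as values only, first for control, AOS and HFD-AOS. For 10 Leydig cell genes it was 3841 ± 261 in control, 2999 ± 493 in AOS and 3587 ± 1209.5 in HFD-AOS (SD, n = 3); for 13 Sertoli cell genes it was 631 ± 33.4, 622 ± 26.2 and 647 ± 40.8. The 12 spermatogonial genes summed to 81.5 ± 3.00, 83.6 ± 2.34 and 80.4 ± 1.43, the 6 peritubular genes to 282 ± 7.71, 282 ± 16.6 and 297 ± 12.6, and the 10 macrophage and leukocyte genes to 57.3 ± 1.65, 54.9 ± 8.23 and 57.5 ± 4.91 in the same groups. For 6 blood genes the sums were 118 ± 20.9, 78.1 ± 17.9 and 71.1 ± 14.4, and for 7 adipocyte genes 26.3 ± 8.86, 25.4 ± 12.3 and 26.1 ± 3.33. In HFD, HFD-AOSFMT and HFD-conFMT, in that order, the sums were 3769 ± 776, 3899 ± 573 and 3712 ± 406 for Leydig, 624 ± 6.96, 634 ± 34.6 and 633 ± 19.3 for Sertoli, 82.5 ± 0.981, 83.4 ± 6.56 and 82.2 ± 3.26 for spermatogonial and 280.2 ± 2.40, 283 ± 8.80 and 289.5 ± 8.68 for peritubular genes. They were 50.2 ± 2.17, 57.2 ± 3.70 and 67.4 ± 5.09 for macrophage and leukocyte, 79.6 ± 30.1, 113 ± 36.9 and 110.4 ± 9.54 for blood, and 23.2 ± 4.70, 24.5 ± 7.90 and 44.6 ± 3.10 for adipocyte genes. Outside the spermatid lists, 1 marker fell in HFD-AOS against control, the Leydig gene Prlr (log2 fold change -0.39, SE 0.090, adjusted p = 0.0386). In HFD-conFMT against control, the spermatocyte genes Sycp2 (-0.27, adjusted p = 0.0235) and Piwil1 (-0.18, adjusted p = 0.0411) and the Sertoli gene Tjp1 (-0.29, adjusted p = 0.0313) fell, and the Leydig gene Hsd3b1 (0.74, adjusted p = 0.0486) and the spermatid genes Tssk2 (0.18, adjusted p = 0.0423) and Spata19 (0.21, adjusted p = 0.0462) rose. None of these 7 markers passed without control replicate 3 and HFD-conFMT replicate 2: adjusted p was 0.148 for Prlr, 0.182 for Sycp2, 0.287 for Piwil1, 0.246 for Tjp1, 0.290 for Hsd3b1, 0.212 for Tssk2 and 0.321 for Spata19.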
